A study of Mus musculus with 8 samples.

Results

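The miR-125 family is represented by 4 mature microRNAs (miRNAs), mmu-miR-125a-5p, mmu-miR-125a-3p, mmu-miR-125b-5p and mmu-miR-125b-3p, each read by 1 probe. The prefix mmu- (mouse) is left out below. They were found by their names in the 6 comparison sheets deposited for this series, which list 346 probes, out of 505 probes in all deposited tables. The cells were fibroblasts, the cells that lay down connective tissue, taken from mouse embryos of ATM+/+ and ATM-/- littermates. The kinase ATM starts the response to breaks in both DNA strands. All cells were grown in serum-containing medium and exposed to neocarzinostatin (NCS), which cuts DNA much as ionizing radiation does, and RNA was taken at 0, 4, 8 and 24 h. The groups are therefore ATM+/+ and ATM-/- at each of these times, with 1 array per genotype and time. The sources used here do not give the NCS dose, the ATM allele, the embryonic age or the number of embryos or lines. No value below has a replicate, and no test between conditions was made.

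MiR-125 is the vertebrate counterpart of lin-4, the first miRNA described in Caenorhabditis elegans. A miRNA precursor folds into a hairpin, from which Dicer cuts a duplex of a 5p and a 3p arm. One arm, usually the 5p arm for miR-125, is loaded into Argonaute as the guide and finds its targets through its seed, while the other arm is mostly degraded. The 3 miR-125 genes lie beside genes of let-7 and of miR-99 or its relative miR-100.

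The mature arms are shown first because the 4 probes must tell them apart. Sequences are from RefSeq (GRCm38.p6), 5′ to 3′, with the seed (bases 2 to 8) in capitals.
miR-125a-5p: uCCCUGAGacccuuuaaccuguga
miR-125b-5p: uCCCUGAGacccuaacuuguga
miR-125a-3p: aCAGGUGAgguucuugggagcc
miR-125b-1-3p: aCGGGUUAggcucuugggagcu
miR-125b-2-3p: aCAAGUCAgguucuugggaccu
Both 5p arms share the seed CCCUGAG and their first 13 bases, and 21 bases were identical in a global alignment of the 24 and 22 bases. A probe for one could therefore take signal from the other, and the 5p values are not fully separate measurements. None of the 3p arms shares a seed with another. miR-125a-3p had 18 identical bases with miR-125b-1-3p and 19 with miR-125b-2-3p, while a 5p and a 3p arm had at most 12. A probe for one 3p arm could thus also take signal from another, and the 3p values are not fully separate either. The deposited name miR-125b-3p does not say which of the 2 miR-125b genes it stands for, so both of their 3p arms are shown.

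miR-125a-5p lies at chr17:17830817-17830840 and miR-125a-3p at chr17:17830855-17830876, both on the plus strand. miR-125b-5p is made from both miR-125b genes, at chr9:41581940-41581961 and chr16:77646279-77646300, also on the plus strand. The 3p arms of these genes lie at chr9:41581980-41582001 and chr16:77646318-77646339. In the precursor hairpins the arms (capitals) face each other across the loop, as shown for the miR-125a gene and the miR-125b gene on chromosome 9.
Mir125a: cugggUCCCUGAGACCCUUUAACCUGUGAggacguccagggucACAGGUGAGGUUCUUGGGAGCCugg
Mir125b-1: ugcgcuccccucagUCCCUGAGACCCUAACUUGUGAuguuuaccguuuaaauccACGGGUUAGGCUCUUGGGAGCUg
The arms of a gene are thus cut from the same RNA molecule, which is why their values are compared below.

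A sheet sets 1 treated array against the 0 h array of its genotype and gives a normalized intensity per probe. The ATM+/+ sheets list 311, 298 and 313 probes at 4, 8 and 24 h and the ATM-/- sheets 185, 154 and 126. miR-125a-3p, miR-125b-5p and miR-125b-3p are in all 6 sheets, 3 of the 120 probes for which that holds, and miR-125a-5p is in all but the ATM-/- sheet at 24 h. The 0 and 4 h arrays of a genotype shared a chip, as did its 8 and 24 h arrays. All 8 fibroblast and mesenchyme markers looked up were listed in both genotypes, against 0 of 3 neural markers and, in ATM+/+ and ATM-/- cells, 2 and 1 of 5 blood, 3 and 1 of 5 epithelial and 1 and 0 of 6 pluripotent markers. The 3 muscle markers were listed in both. Being listed says little about brightness. At 0 h the fibroblast and mesenchyme markers ran from 317 to 1070 in ATM+/+ cells and from 29.4 to 1027 in ATM-/- cells. The listed epithelial markers reached 368 and 164, inside these ranges. The array measures no Atm transcript, so the genotype was not checked. In such bulk RNA, fewer cells of a type and less RNA per cell cannot be told apart.

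The 5p arms were brighter in ATM+/+ than in ATM-/- cells at each time listed for both, which leaves out 24 h for miR-125a-5p, and the intensities of the 3p arms overlapped. For intensities across times, the sheets of a genotype were put on the scale of its 4 h sheet through their shared 0 h array. ATM+/+ and ATM-/- sheets were normalized apart from each other, and differences between genotypes depend on the scaling.

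miR-125b-5p had ATM+/+ intensities of 1524, 3325, 2677 and 2930 at 0, 4, 8 and 24 h, against 346, 413, 275 and 225 for ATM-/-. The genotypes did not overlap, and the 0 h array was the lowest of the 4 in ATM+/+ cells but the second highest in ATM-/- cells. miR-125a-5p had 379, 690, 559 and 644 in ATM+/+ cells, against 40.6, 50.5 and 37.8 for ATM-/- at 0, 4 and 8 h. Here too the genotypes did not overlap, and the ATM-/- values lay in the lower part of their sheets. Among treated intensities they were at percentile 36.2 at 4 h and 23.4 at 8 h. Over the 6 sheets the 10th percentiles of intensity ran from 24.4 to 30.9. All 23 listed responses of the 4 miRNAs rest on intensities above these percentiles.

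miR-125b-3p had 436, 265, 240 and 273 in ATM+/+ cells, against 226, 242, 249 and 169 for ATM-/-. miR-125a-3p had 115, 88.1, 89.8 and 75.9 in ATM+/+ cells, against 83.6, 80.5, 101 and 92.5 for ATM-/-. For both 3p arms the genotypes overlapped, with the highest intensity of all arrays in ATM+/+ cells at 0 h.

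On this scale the log2 level difference, ATM+/+ minus ATM-/-, was 3.03 ± 0.66 (SD over 4 times) for miR-125b-5p and 3.63 ± 0.35 (SD over 3 times) for miR-125a-5p. It was 0.43 ± 0.47 for miR-125b-3p and 0.03 ± 0.33 for miR-125a-3p over 4 times. Over the 120 probes in all 6 sheets the median level difference was 0.90, 0.49, 0.61 and 0.76 at 0, 4, 8 and 24 h. Of these probes 55.8% were higher in ATM+/+ cells at all 4 times, or 27.5% after this median was subtracted at each time. With arrays instead centred on their medians, which is not the same shift, the 5p differences were 2.02 for miR-125b-5p and 2.60 for miR-125a-5p. Those of the 3p arms turned, to -0.59 for miR-125b-3p and -0.98 for miR-125a-3p, so the 3p arms have no settled direction between genotypes.

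**Figure D1:**
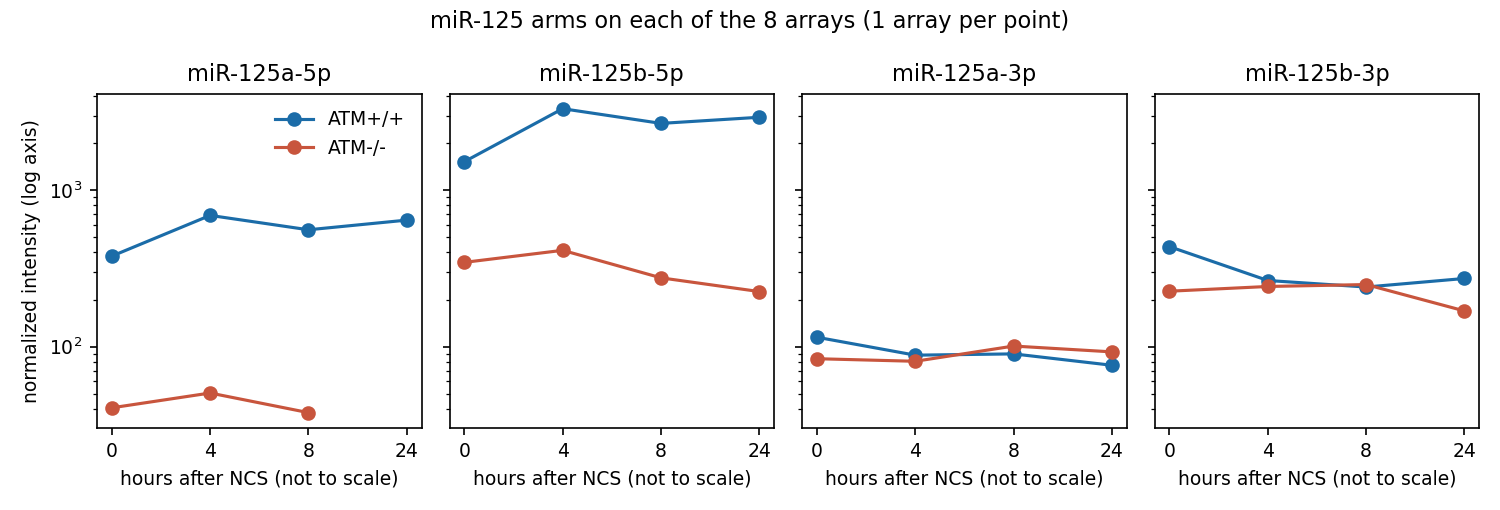
Normalized intensity (log axis) of each arm against hours after NCS, 1 array per point, with ATM+/+ in blue and ATM-/- in red and each genotype on the scale of its 4 h sheet. The 5p arms of the genotypes are separated on the arrays that list them, from 1524 to 3325 against 225 to 413 for miR-125b-5p, and the 3p arms overlap.

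The ratio of the 5p to the 3p intensity on an array is unchanged when that array is scaled by a single factor, though not under quantile normalization, so its difference between genotypes does not rest on the choice of such a factor. At 0 h the miR-125b arm ratio was 2.29-fold higher in ATM+/+ than in ATM-/- cells, and at 4, 8 and 24 h it was 7.38-, 10.1- and 8.08-fold higher. For miR-125a it was 6.81-, 12.5- and 16.6-fold higher at 0, 4 and 8 h. Both genes thus had more 5p signal per 3p signal in ATM+/+ cells at each time measured in both genotypes, which leaves out 24 h for miR-125a, and the smallest difference was in untreated cells. For miR-125a this includes the ATM-/- 5p intensities of 37.8 to 50.5.

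After NCS, every ATM+/+ array had the 5p arms above and the 3p arms below their 0 h intensity. Responses are given as log2 of the treated over the 0 h intensity of the same sheet. The error after ± for a single response combines the coefficients of variation between spots of both arrays and is technical only.

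For miR-125b-5p in ATM+/+ cells the log2 response was 1.13 ± 0.39 at 4 h, 0.81 ± 0.35 at 8 h and 0.94 ± 0.37 at 24 h. These are 2.18-, 1.76- and 1.92-fold of the 0 h intensity, with a mean of 0.96 ± 0.16 (SD over 3 times). For miR-125a-5p it was 0.87 ± 0.13, 0.56 ± 0.15 and 0.77 ± 0.14, or 1.82-, 1.47- and 1.70-fold, with a mean of 0.73 ± 0.16. Both 5p arms exceeded the spot error at each time and were highest at 4 h.

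For miR-125b-3p in ATM+/+ cells the log2 response was -0.72 ± 0.19 at 4 h, -0.86 ± 0.20 at 8 h and -0.68 ± 0.25 at 24 h, with a mean of -0.75 ± 0.09 (SD over 3 times). For miR-125a-3p it was -0.38 ± 0.13, -0.35 ± 0.18 and -0.60 ± 0.16, with a mean of -0.44 ± 0.13. The remaining 3p signal was 0.61-, 0.55- and 0.63-fold for miR-125b-3p and 0.77-, 0.78- and 0.66-fold for miR-125a-3p.

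The medians over all listed probes in ATM+/+ cells were 0.19, 0.07 and -0.14 at 4, 8 and 24 h. Against these, the 5p arms stayed above and the 3p arms below at each time. The 3 comparisons share their 0 h array, and of the 284 probes in all 3 ATM+/+ sheets 40.8% were above it each time and another 40.8% below, so 2 of 4 members on each side is near the background. At least 2-fold was reached by miR-125b-5p at 4 h alone, where 7.07% of probes passed this limit upward and 18.3% downward. No member did so at 8 h, where these shares were 3.69% and 8.39%, or at 24 h, where they were 5.75% and 17.6%. On the mean of the 3 times 0 of 4 members reached 2-fold, against 4.93% of probes higher and 17.6% lower. miR-125b-5p ranked 13 of 311 probes from the top at 4 h, 23 of 298 at 8 h and 22 of 313 at 24 h, and miR-125a-5p ranked 37, 56 and 36. miR-125b-3p ranked 241, 262 and 212 and miR-125a-3p ranked 206, 197 and 205.

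The p-values in the authors' deposited table for these ATM+/+ comparisons were 0.0110, 0.0159 and 0.0136 for miR-125b-5p at 4, 8 and 24 h. Those for miR-125a-5p in the authors' deposited table were 0.000290, 0.00404 and 0.000778. In the authors' deposited table the p-values were 0.00458, 0.00284 and 0.00944 for miR-125b-3p, and 0.0106, 0.0262 and 0.00374 for miR-125a-3p. The sources used here do not name the test, and it can compare only the 2 arrays of a sheet, not the conditions.

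In ATM-/- cells no arm kept one sign at every listed time. miR-125b-5p stood at 0.26 ± 0.23 at 4 h, -0.33 ± 0.30 at 8 h and -0.62 ± 0.20 at 24 h, from slightly above to below the 0 h array. miR-125a-5p stood at 0.31 ± 0.20 at 4 h and -0.10 ± 0.25 at 8 h. miR-125b-3p stood at 0.10 ± 0.34, 0.14 ± 0.12 and -0.42 ± 0.17, and miR-125a-3p at -0.05 ± 0.17, 0.27 ± 0.29 and 0.15 ± 0.17. The medians of all listed probes were 0.08, -0.10 and -0.08. Of the 123 probes in all 3 ATM-/- sheets 13% were above 0 h at all 3 times and 17.1% below, and 0 of the 3 miR-125 members among them were either. No member reached 2-fold in ATM-/- cells, where the shares upward and downward were 1.08% and 0.541% (4 h), 2.6% and 5.84% (8 h) and 2.38% and 12.7% (24 h). On the mean of the 3 times these shares were 0.813% each. In the authors' deposited table the 24 h p-value was 0.00555 for miR-125b-5p and 0.0132 for miR-125b-3p in ATM-/- cells, and the other 9 listed there lay from 0.0596 to 0.648.

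**Figure D2:**
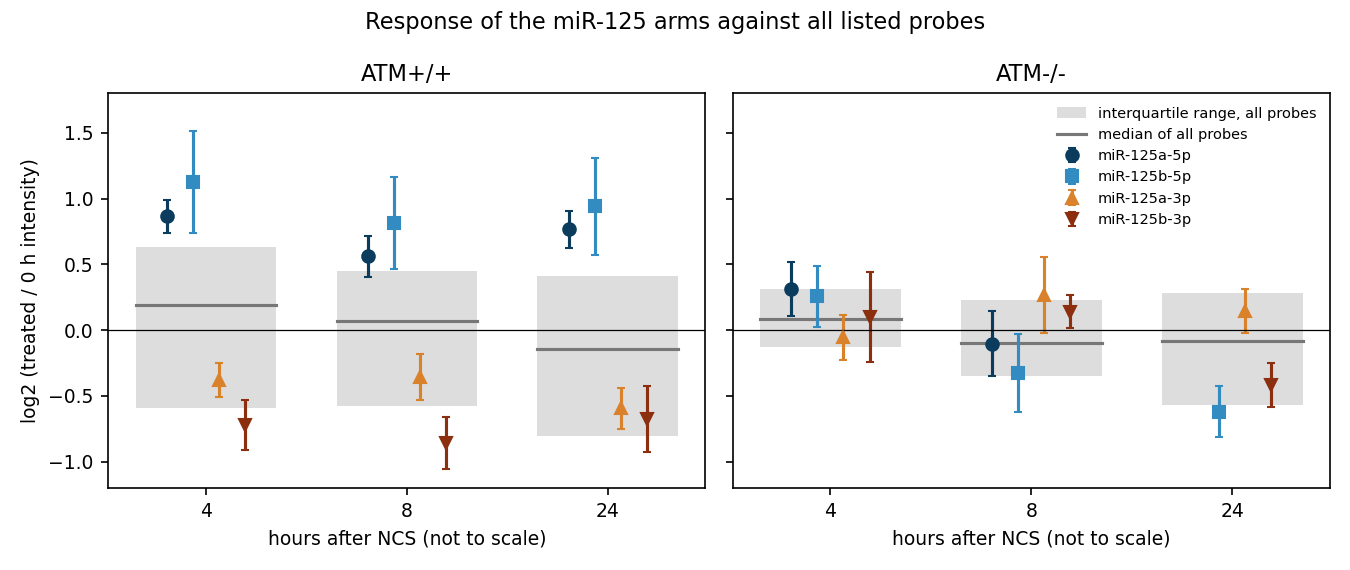
Log2 of treated over 0 h intensity against hours after NCS in ATM+/+ (left) and ATM-/- cells (right). Points are single comparisons of 2 arrays with the combined spot error, grey boxes and lines the interquartile range and median of all listed probes. In ATM+/+ cells the 5p arms lie between 0.56 and 1.13 and the 3p arms between -0.86 and -0.35, and in ATM-/- cells the arms mix around 0.

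The value table deposited by the authors, a ratio to the 0 h array for 431 probes, holds the 5p arms only. Its ATM+/+ ratios were 2.30, 2.08 and 2.48 for miR-125b-5p and 1.90, 1.67 and 2.18 for miR-125a-5p at 4, 8 and 24 h. Its ATM-/- ratios were 1.29, 1.15 and 0.67 for miR-125b-5p and 1.35, 1.31 and 0.81 for miR-125a-5p. In this table the ATM-/- ratios of both 5p arms were thus above 1 at 4 and 8 h and below 1 at 24 h, while at 8 h the sheets had both below. In ATM+/+ cells the value table had its highest ratio at 24 h and the sheets at 4 h, so the order of the treated times is not settled. On the mean log2 of the 3 times, miR-125b-5p lay at percentile 96.8 and miR-125a-5p at percentile 92.3 of the 431 probes in ATM+/+ cells, and at 62.6 and 78.4 in ATM-/- cells. At all 3 times 33.6% of its probes were above 0 h for ATM+/+ and 14.4% for ATM-/-. A mean of at least 2-fold, which miR-125b-5p had in ATM+/+ cells, was reached by 6.03% of probes for ATM+/+ and 0.928% for ATM-/-.

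Whether the change after NCS differs with ATM was examined by subtracting each ATM-/- response from the ATM+/+ response of that time. For miR-125b-5p it was 0.87, 1.14 and 1.56 at 4, 8 and 24 h, with a mean of 1.19 ± 0.35 (SD over 3 times). For miR-125a-5p it was 0.55 and 0.66 at 4 and 8 h. The 3p arms lay on the other side, at -0.82, -1.0 and -0.26 for miR-125b-3p with a mean of -0.69 ± 0.39, and at -0.33, -0.62 and -0.74 for miR-125a-3p with a mean of -0.56 ± 0.21. Of the 120 probes in all 6 sheets, 33.3% had a higher response in ATM+/+ cells at all 3 times and 32.5% a lower one, and 6.67% had a mean difference of at least 1, among them miR-125b-5p, and 18.3% one of at most -1, with 0 members.

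The 5p and 3p arms were next set against each other on the same arrays, which removes any single scaling factor of an array. For miR-125b a change in the shares of its genes cannot be told apart from a change between arms. In ATM+/+ cells the response of 5p minus that of 3p was 1.85, 1.67 and 1.62 for miR-125b at 4, 8 and 24 h, with a mean of 1.71 ± 0.12 (SD over 3 times). For miR-125a it was 1.25, 0.91 and 1.36, with a mean of 1.17 ± 0.23. In ATM-/- cells it was 0.16, -0.47 and -0.20 for miR-125b and 0.37 and -0.37 at 4 and 8 h for miR-125a. The arm difference in ATM+/+ cells exceeded that in ATM-/- cells by 1.88 ± 0.23 for miR-125b over 3 times and by 0.88 and 1.29 at 4 and 8 h for miR-125a.

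All 3 ATM+/+ values share the 0 h array. Between treated ATM+/+ arrays the arm difference of miR-125b was -0.05 for 24 h against 8 h, which share a chip, and -0.23 for 24 h against 4 h. That of miR-125a was 0.45 and 0.11. Within the chip that holds 0 and 4 h the arm difference was 1.85 for miR-125b and 1.25 for miR-125a, as above. The separation of the miR-125b arms thus lay between the 0 h array and the treated arrays and did not grow among the treated ones, and whether 1 deviating 0 h array contributed was not tested.

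Other precursors with both arms listed give the range of such differences. In ATM+/+ cells 39 precursors had both arms in all 3 sheets, of which miR-30c-1 and miR-30c-2 share 1 arm. By the size of the mean arm difference miR-125b ranked 4 and miR-125a ranked 7 of 39, against a median of 0.48 over the other 37 and a highest of 2.50, for miR-30c-2. The arms lay on opposite sides of 0 h at all 3 times for miR-125a, miR-125b and 9 of the other 37. In ATM-/- cells this held for 0 of 11 precursors with both arms listed, miR-125b included, and the other 10 had sizes from 0.00165 to 0.63. Between genotypes, the arm difference of miR-125b changed by 1.88, rank 2 of the 11 precursors after let-7b, with a median size of 0.85 over the other 10. An arm difference of this size is therefore not particular to miR-125. A cause common to many precursors was not tested.

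**Figure D3:**
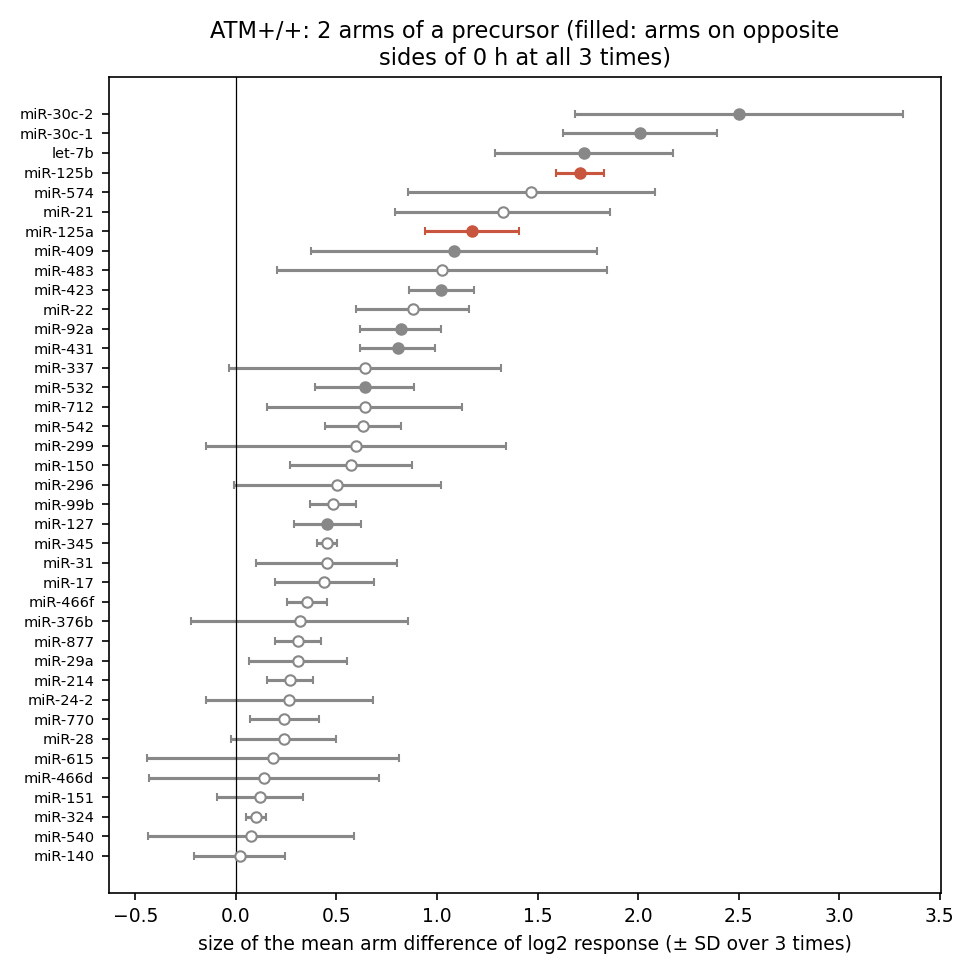
Size of the mean arm difference of the log2 response in ATM+/+ cells for the 39 precursors with both arms in all 3 sheets, with the SD over 3 times as bars and miR-125 in red. Filled points mark arms on opposite sides of 0 h at all 3 times. miR-125b at 1.71 and miR-125a at 1.17 lie in the upper part of a range that reaches 2.50.

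The a and b genes differed less than the arms in ATM+/+ cells, where the 5p response of miR-125a was below that of miR-125b by 0.26, 0.25 and 0.18 on the log2 scale at 4, 8 and 24 h, with a mean difference of -0.23 ± 0.05 (SD over 3 times). At each time this is smaller than the spot error of the miR-125b-5p response. The 3p response of miR-125a was above that of miR-125b by 0.34, 0.50 and 0.08, with a mean of 0.31 ± 0.21. At 24 h the gap of 0.08 was smaller than the spot errors of 0.25 for miR-125b-3p and 0.16 for miR-125a-3p. By value, both arms of miR-125b were thus farther from 0 h than those of miR-125a in ATM+/+ cells at all 3 times. The spot error leaves this order unresolved for the 5p arms and for the 3p arms at 24 h. In ATM-/- cells the a minus b difference was 0.06 and 0.23 at 4 and 8 h for the 5p arms and -0.16, 0.13 and 0.56 at 4, 8 and 24 h for the 3p arms.

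Each miR-125 gene lies near a let-7 gene, whose product is known for repressing growth genes in differentiated cells, and a gene of miR-99 or miR-100. In RefSeq (GRCm38.p6) Mir125a is 367 bases from Mirlet7e and 554 from Mir99b on chromosome 17. Mir125b-1 is 45114 bases from Mirlet7a-2 and 50421 from Mir100 on chromosome 9, and Mir125b-2 is 46522 bases from Mirlet7c-1 and 47272 from Mir99a on chromosome 16. Of the 12 partner arms looked up, 7 were listed in the sheets. let-7a and let-7c also come from genes elsewhere, and let-7 members are near-identical, so their signal is not that of the cluster alone.

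In ATM+/+ cells 5 of the 7 partners were above 0 h each time and 0 below, where 40.8% of the 284 probes were above and 40.8% below, with a median of their means of 0.71, against 0.00 over these probes. Beside Mir125a, let-7e stood at 0.68, 0.60 and 0.86 at 4, 8 and 24 h and miR-99b at 0.67, 0.48 and 0.32, the last below miR-125a-5p by more than the spot error of that arm, while miR-99b* stood at 0.31, -0.11 and -0.17. Beside Mir125b-1, let-7a stood at 0.97, 0.77 and 1.26 as the mean of 2 probes. miR-100 stood at 1.5, 1.31 and 1.44, with a 0 h intensity of 18.0, under the 10th percentiles of the sheets. Beside Mir125b-2, let-7c stood at 1.10, 0.82 and 1.28 and miR-99a at 0.16, 0.13 and -0.24.

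Of the partners of Mir125b-2, let-7c lay near miR-125b-5p and miR-99a near 0. The miR-125b-5p signal can come from either gene, and the array does not separate them. In ATM-/- cells 4 of the 7 partners were listed in the sheets, and let-7e stood at -0.01, 0.04 and -0.10. let-7c stood at 0.79 at 4 h and -1.06 at 8 h, and miR-99b at -0.17 at 4 h, with no later value in the sheets for either. let-7a stood there at 0.40, -0.48 and -0.76, the last from 1 probe, in the same order of times as miR-125b-5p. The value table had ATM-/- log2 ratios at 8 and 24 h of 0.25 and -0.06 for miR-99b and -1.74 and -0.97 for let-7c. At 4, 8 and 24 h it had -0.84, -0.54 and 0.21 for miR-100 and -0.20, -0.23 and 0.19 for miR-99a.

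The seed CCCUGAG is also that of miR-351, a rodent miRNA whose mature 5p sequence is shown for comparison.
miR-351-5p: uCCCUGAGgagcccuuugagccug
It shares its first 8 bases with miR-125b-5p. In ATM+/+ cells miR-351 stood at 0.30, 0.08 and 0.11, below both 5p arms of miR-125 at each time. In ATM-/- cells it stood at 0.03, -0.55 and 0.21. The value table had 0.07, 0.12 and 0.15 there, so its 8 h direction is not settled. Of the 5 RefSeq mouse miRNAs with this seed, miR-125a-5p, miR-125b-5p and miR-351 were listed, and miR-6367 and miR-6394 were not.

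**Figure D4:**
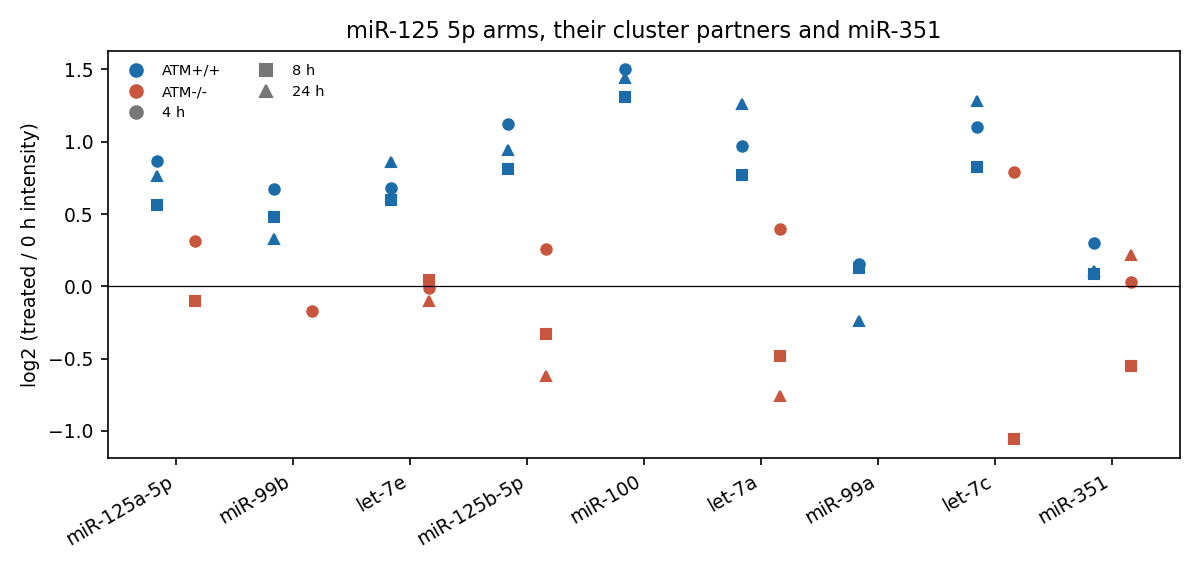
Log2 of treated over 0 h intensity for the 5p arms, the unmarked cluster partners and miR-351 at 4 h (circles), 8 h (squares) and 24 h (triangles), in ATM+/+ (blue) and ATM-/- cells (red). In ATM+/+ cells miR-99a and miR-351 lie near 0, from -0.24 to 0.30, and the others lie from 0.32 to 1.5.

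Among 270 other named miRNAs of the value table, likeness was taken as the mean absolute difference of the log2 ratio over the 6 treated arrays. Nearest to miR-125a-5p were let-7e at 0.12, miR-31 at 0.21 and miR-221 at 0.21, against a median of 0.66 over all candidates. Nearest to miR-125b-5p were let-7a at 0.18, miR-28 at 0.20 and let-7b at 0.24, against a median of 0.78. From the sheets, the nearest to miR-125b-5p among 115 miRNAs were let-7a at 0.16, miR-21 at 0.20 and miR-106b at 0.28, so let-7a alone was named from both sources. The 3p arms are outside that table, so the sheets were used for them, a choice made after seeing the files. Among the same 115 miRNAs, which are in all 6 sheets, nearest to miR-125b-3p were miR-877* at 0.13, miR-423-5p at 0.15 and miR-1224 at 0.15, and nearest to miR-125a-3p were miR-532-3p at 0.19, miR-880 at 0.21 and miR-21* at 0.21.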

How the data were processed

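Total RNA from 8 samples was labelled from 4 µg with a ULS miRNA kit, per the labels' protocols, and hybridised to 1-colour arrays. The sources used here do not give scanner settings or background correction. Per the file headers, the authors' 6 sheets hold normalized intensity for both arrays of a comparison, the coefficient of variation of spots, a log2 ratio and a p-value. The authors also deposited a ratio of each array to its 0 h array. The deposited slide lists gave the genotype of each sheet column.

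Log2 responses were computed from the sheet intensities, since both 3p arms are outside the value table, which had been planned as the source and is used as an alternative. With 1 array per group no test was run, and a 2-fold limit was used. Each member has 1 probe. The precision is limited by the number of arrays. Members, lists and the rule for named miRNAs (members, cluster partners, miRNAs of the same seed and the 3 nearest in response) were chosen with earlier results of these data known. The response and quantile steps were tested on simulated data. Python 3.11.15, pandas 2.3.3 and Biopython 1.88 were used.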

Additional observations from a re-analysis of the deposited data

How the results depend on the processing

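Of 185 recomputed values, 149 stayed within the SD over times, or for member counts unchanged, and 36 did not. Much of the 149 was fixed beforehand, so it says little about stability. Leaving out a time shifts a mean by less than that SD, whatever the values. The 10th-percentile intensity limit removed 0 of 23 member responses, and centring on sheet medians leaves arm and gene differences unchanged. Among all 185 values the sign changed in 16. These were 5 that set treated arrays against each other, 6 that rescaled the level differences of the 3p arms, and 5 that left out a time. The last were the ATM-/- responses of miR-125a-5p without 4 h (-0.10) and miR-125b-3p without 24 h (0.12), the ATM-/- arm difference of miR-125a without 8 h (0.37), the ATM-/- 3p gene difference without 24 h (-0.0137) and the miR-125a-3p level difference without 0 h (-0.11). No paired analysis was possible because the groups share only 1 replicate number and no test was run; the genotypes were set against each other time by time. Each member has 1 probe, so averaging probes changes nothing, and quantile normalization gave no value for miR-125a-5p, nor the value table for 3p arms. Centred on sheet medians, the miR-125a-5p difference of responses was 0.47. Quantile normalized, ATM+/+ responses were -0.30 for miR-125a-3p and -0.56 for miR-125b-3p, the miR-125a-3p difference of responses -0.34 and the miR-125b arm difference 1.5. From the value table, the miR-125b-5p response in ATM+/+ cells was 1.19, that of miR-125a-5p 0.93 and the miR-125a-5p difference of responses 0.76.

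With 24 h set against 8 h in place of 0 h, ATM+/+ values were 0.21, -0.24, 0.13 and 0.18 for miR-125a-5p, miR-125a-3p, miR-125b-5p and miR-125b-3p, and ATM-/- values -0.12 for miR-125a-3p and -0.56 for miR-125b-3p. With 24 h against 4 h they were -0.10, -0.21, -0.18 and 0.0432 in the same order in ATM+/+ cells, while in ATM-/- cells miR-125b-5p was at -0.88 and miR-125b-3p at -0.52. Both ask how treated arrays differ, not how they differ from 0 h.

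Genotype level differences moved with the scaling. Matched to the 24 h sheet they were 4.23 for miR-125a-5p, 0.63 for miR-125a-3p and 1.03 for miR-125b-3p. Centred on array medians they were 2.60, -0.98, 2.02 and -0.59 for miR-125a-5p, miR-125a-3p, miR-125b-5p and miR-125b-3p. Scaled to the 75th percentile they were 2.39, -1.25, 1.75 and -0.85 in the same order. Quantile normalized they were -0.79 for miR-125a-3p, -0.84 for miR-125b-3p and 1.75 for miR-125b-5p. On the mean response in ATM+/+ cells 0 members reached 2-fold in either direction; at 1.5-fold 2 were higher and 1 lower. Leaving out a time cannot move a mean by more than the SD over times, whatever the values. Its 5 sign changes are given above.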
